A study of Mus musculus with 8 samples.

Results

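The comparison described here sets 4 of the 8 libraries of a NOMe-seq experiment against each other: 2 treated libraries from mouse embryonic fibroblasts (MEFs) on day 0 and 2 treated libraries from MEFs on day 1 of reprogramming by Etv2. Treated means that the chromatin had been exposed to M.CviPI, a methyltransferase acting on the cytosine of GpC. The libraries were chosen by their group labels alone. On each day 2 further libraries had received no enzyme, and these 4 untreated libraries give the background. The labels give the day 0 cells as the control and name neither the mouse strain, the age of the embryos nor the vector that carries Etv2. Whether replicate libraries were made from separate cultures is not stated, and p-values then measure only the spread between these libraries, which may be technical.

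Etv2, an ETS transcription factor, directs cells of the early embryo towards endothelium and blood, and it can push fibroblasts towards an endothelial fate. Most DNA in a nucleus is wrapped around nucleosomes, which shield it from M.CviPI, while linkers and promoters without a nucleosome are methylated. Bisulfite sequencing then reads a GpC methylation level, which stands for accessibility. Because the same nucleosome covers neighbouring sites and the next one starts a repeat length away, the correlation between levels at neighbouring sites dips at distances that pair a core with a linker and recovers near the repeat length.

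A call is 1 read over 1 site. The treated day 0 libraries held 2138058 and 2123335 calls at 568331 and 559372 sites, and the treated day 1 libraries 2856034 and 2917131 calls at 792322 and 810078 sites. From 87.4% to 88.2% of the treated autosomal sites of up to 100 reads had exactly 3 reads, the fewest listed. Autosomal sites over 100 reads numbered 280 to 322 per treated library, held 7.22% to 9.67% of its autosomal calls, and were left out. In the promoter windows of RefSeq, where the bases are known, all 65847 listed sites of the 8 libraries were cytosines of GpC not followed by G, on one strand or the other.

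The same 1 kb blocks of the genome were more methylated on day 1. Over the 89745 autosomal blocks of 1 kb with treated calls on both days, each block weighted alike on both days, the level was 30.3% and 30.2% in the day 0 libraries and 32.3% and 32.2% in the day 1 libraries. Both day 1 libraries lay above both day 0 libraries, by 1.98 percentage points ± 0.112 (SD of the difference, n = 2 per day). In the 117377 blocks of 10 kb the levels were 29.3% and 29.2% on day 0 and 30.9% in each day 1 library, a difference of 1.61 points ± 0.0906. The exact two-sided permutation test over the 4 libraries gave p = 0.333 for both block sizes. That is the smallest p that 2 against 2 libraries allow, so no comparison of library levels below can pass 0.05, and each is described by whether the libraries overlap.

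The background went the other way. Untreated levels in the 1 kb blocks covered on both days were 2.55% and 2.57% on day 0 and 1.53% and 1.54% on day 1, again without overlap. In pairs of single treated libraries, each over the blocks both covered, the 4 pairs across days differed by 1.99 to 2.22 points in 1 kb blocks and by 1.55 to 1.77 points in 10 kb blocks. The 2 replicate pairs differed by 0.145 and 0.0318 points in 1 kb blocks. The shift was thus larger than the spread between replicates in every pairing of treated libraries. All 19 autosomes showed day 1 above day 0 without overlap, from 1.28 points on chromosome 4 to 3.38 points on chromosome 17 in 1 kb blocks.

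Single blocks scattered far more widely than this mean shift. Among 37505 blocks of 10 kb with 20 calls on each day, 54.3% were higher on day 1 and the median difference was 1.72 points, against an SD of 16.1 points. A gain of more than 10 points was seen in 28.4% of them and a loss of more than 10 points in 22.3%. Between replicates of the same day the SD was 18.2 points on day 0 and 17.1 points on day 1, over 9377 and 17536 blocks with 20 calls in both libraries. The scatter of single blocks between days was no wider than that between replicates, whose calls are fewer per block.

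The reads at sites covered by exactly 3 reads show the form of the shift. Sites with 0 of 3 reads methylated made up 38.4% and 38.5% of them on day 0 and 36.2% in each library on day 1. Sites with 1 of 3 made up 40.7% on day 0 and 41.5% on day 1, sites with 2 of 3 made up 17.4% and 18.7%, and sites with 3 of 3 made up 3.44% and 3.63%. All 4 shares separated the days without overlap. The fully unmethylated share was lower on day 1, and the largest gain was in sites with 2 of 3 reads methylated. The correlation between 2 reads over the same site was 0.0519 and 0.0514 on day 0 and 0.0432 and 0.0437 on day 1, so reads of a site were little alike on either day. The untreated libraries, at 0.0394 and 0.0439 on day 0 and 0.0353 and 0.0314 on day 1, also had the lower values on day 1. These sites are whichever each library happened to cover, not the same sites on both days.

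Depth marked out a small set of blocks with a larger difference. At sites of 3 reads the day 1 level was 1.61 points ± 0.189 higher over 87730 blocks, at sites of 4 to 5 reads 1.80 points ± 0.523 over 3556 blocks, and at sites of 6 to 20 reads 2.16 points ± 0.430 over 470 blocks. At sites of 21 to 100 reads the libraries stood at 39.6% and 39.3% on day 0 and 43.5% and 43.4% on day 1, a difference of 4.02 points ± 0.171 over only 186 blocks. The 1% of 1 kb blocks with the most weight held 32.6% of all weight. Values weighted by calls are therefore given beside values with every block weighted the same, and a cap of 5 reads per site was added after these depths were seen. Whether the deep sites lie in repeated sequence was not tested.

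**Figure D1:**
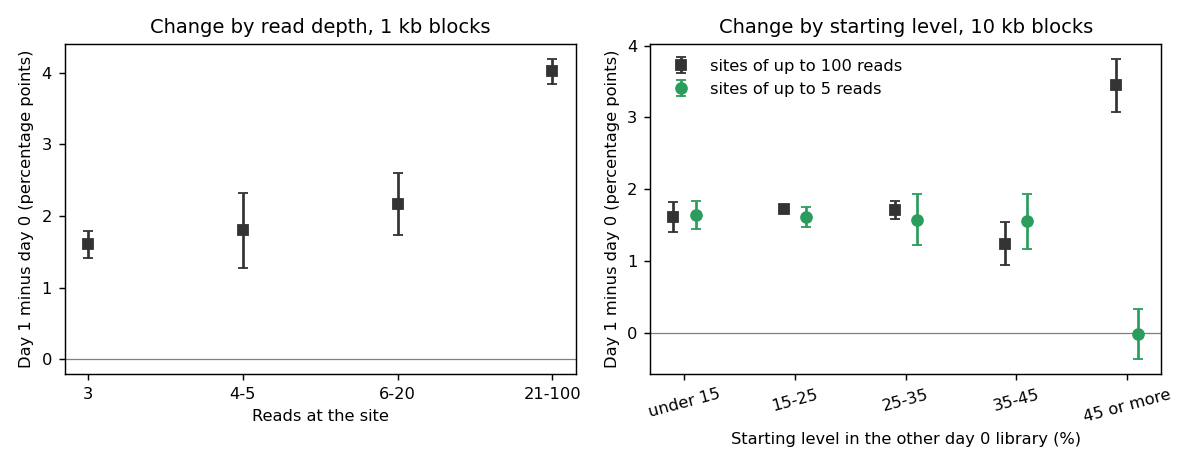
Left, the day 1 minus day 0 difference in GpC methylation (percentage points) of treated libraries in matched 1 kb blocks, by the reads at the site. Right, the same difference in 10 kb blocks by the starting level (percent) in the other day 0 library, for sites of up to 100 reads (squares) and up to 5 reads (circles). Points are differences of means of 2 libraries per day and bars are ± 1 SD of the difference; sites of 21 to 100 reads stand at 4.02 points, and the highest starting class goes from 3.45 points to -0.01 when the deep sites are left out.

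Distance to genes separated the blocks most clearly where a gene starts or stops. Blocks of 1 kb that hold an annotated gene end had 38.2% and 37.6% on day 0 and 38.1% and 38.5% on day 1, so the days overlapped there, at a difference of 0.400 points ± 0.510 over 5396 blocks. Inside genes, away from their ends, the levels were 28.6% in each day 0 library and 30.6% and 30.5% on day 1, a difference of 1.90 points ± 0.0923 over 52809 blocks. Outside genes the difference was 3.30 points ± 0.366 at under 10 kb from the nearest gene (13290 blocks), 1.74 points ± 0.199 at 10 to 100 kb (15141 blocks) and 1.73 points ± 0.263 at over 100 kb (3109 blocks), each without overlap. Gene ends were the most methylated class on day 0 and the only distance class in which the treated days overlapped.

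With every block given the same weight, gene ends again differed least, DNA over 100 kb from genes most, and the 3 classes between them were alike. Gene ends then stood at 35.8% and 35.7% on day 0 and 36.2% and 36.0% on day 1, a difference of 0.326 points ± 0.181. Gene bodies differed by 1.64 points ± 0.0959, blocks under 10 kb from a gene by 1.63 points ± 0.0361, those at 10 to 100 kb by 1.77 points ± 0.116 and those at over 100 kb by 2.55 points ± 0.932. The value of 3.30 points under 10 kb came down to 1.70 points ± 0.230 with sites of up to 5 reads, while gene ends went to -0.177 points ± 0.760 with the days overlapping. The untreated levels were lower on day 1 in all 5 classes, by -0.462 points at gene ends and by -0.989 to -1.14 points elsewhere. Over 100 kb from genes the untreated libraries read 8.23% and 8.69% on day 0 and 7.61% and 7.33% on day 1, the highest background of any distance class, and 3.08% and 2.95% on day 0 at sites of up to 5 reads.

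The difference between the classes was itself computed per library. The change in gene bodies exceeded that at gene ends by 1.50 points ± 0.561, without overlap of the days (exact permutation p = 0.333, n = 2 per day). It was 1.31 points with equal weights, 1.97 points with sites of up to 5 reads and 0.598 points in 10 kb blocks, each without overlap. Over blocks with calls in all 4 treated libraries it was 0.101 points and the days overlapped. Leaving out a library gave 0.942 to 1.97 points, the lowest without the first day 0 library. The contrast fixed for distance, over 100 kb minus gene ends, was 1.33 points ± 0.768 and reached -1.17 points in blocks with calls in all 4 treated libraries. In 10 kb blocks it was 0.583 points ± 0.800 with the days overlapping. Without the first day 0 library it was 0.531 points and the days overlapped. A smaller shift at gene ends was therefore seen in most settings, against gene bodies and, less steadily, against remote DNA. The latter contrast was 2.23 points with equal weights, 3.65 with protein-coding genes and 2.64 with sites of up to 5 reads. In these 3 settings the days did not overlap. Over blocks with calls in all 4 treated libraries neither contrast held.

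**Figure D2:**
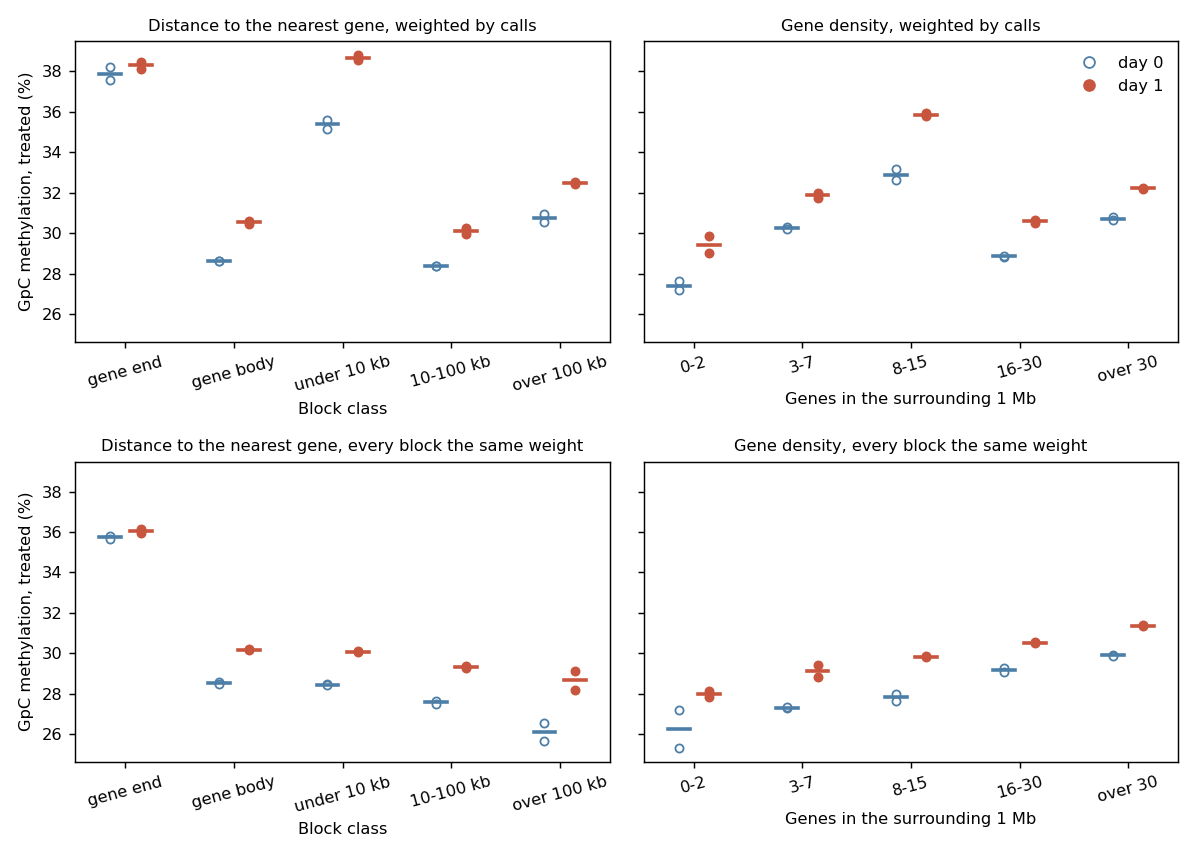
GpC methylation level (percent) of treated libraries in 1 kb blocks by distance to the nearest gene (left) and by genes in the surrounding 1 Mb (right), weighted by calls (top) and with every block weighted the same (bottom). Each circle is a library (open for day 0, filled for day 1) and each bar the mean of 2; day 1 lies above day 0 in every class except gene ends weighted by calls, where the libraries overlap.

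Gene density gave no ordered difference between the days in the treated libraries. In blocks with 0 to 2 genes in the surrounding 1 Mb the libraries read 27.2% and 27.6% on day 0 and 29.0% and 29.9% on day 1. In blocks with over 30 genes they read 30.8% and 30.7% on day 0 and 32.2% in each day 1 library. The 5 classes from sparse to dense differed by 2.03 points ± 0.668, 1.60 ± 0.175, 2.96 ± 0.423, 1.72 ± 0.0968 and 1.50 ± 0.0927, and in each the days did not overlap. With equal weights the value of the middle class, 8 to 15 genes, was 2.01 points ± 0.226 and the densest class stood at 1.47 points ± 0.0705. The densest minus the sparsest class was -0.532 points ± 0.732 with the days overlapping (exact permutation p = 0.667), and its sign turned when genes were limited to protein-coding ones, at 0.232 points. The untreated difference was ordered. With sites of up to 5 reads it was -1.93, -1.43, -1.31, -1.08 and -0.817 points from sparse to dense. The treated differences at those sites were 2.09, 1.74, 2.10, 1.39 and 1.38 points.

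Levels themselves were higher in denser DNA on both days when blocks were weighted alike. From the sparsest to the densest class the equal-weight means were 26.3%, 27.3%, 27.8%, 29.2% and 29.9% on day 0, and 28.0%, 29.1%, 29.8%, 30.5% and 31.4% on day 1. Across this range of 5 classes the day 1 means kept the day 0 order. Untreated equal-weight levels ran the other way on day 0, where the sparsest class had 3.61% and 3.18% and the densest 2.35% and 2.42%. The background on day 0 was thus lower, not higher, in dense DNA. On day 1 this was not seen at sites of up to 5 reads in 1 kb blocks, weighted by calls. The sparsest class of the untreated libraries then had 0.905% and 0.865% and the densest 1.09% and 1.23%.

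Starting level was taken from 1 day 0 library and the change measured with the other, so that chance in the starting value did not enter the change. In 10 kb blocks that started under 15%, the other day 0 library read 28.1% and 28.4% in the 2 swaps, and the day 1 libraries 29.9% and 29.8%. Blocks chosen as low in 1 library were thus close to the overall level in its replicate. The difference was 1.61 points ± 0.208 in that class, 1.73 ± 0.0479 from 15% to 25%, 1.71 ± 0.125 from 25% to 35%, and 1.24 ± 0.295 from 35% to 45%. In blocks that started at 45% or more, the levels were 44.6% and 44.7% on day 0 and 48.3% and 47.8% on day 1, a difference of 3.45 points ± 0.366. All 5 classes separated the days.

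The largest value, in the highest class, rested on deep sites. With sites of up to 5 reads the highest class had 32.4% and 31.9% on day 0 and 32.1% and 32.2% on day 1, so the days overlapped and the difference was -0.01 points ± 0.350. The other 4 classes then differed by 1.64, 1.61, 1.58 and 1.55 points, each without overlap. The highest minus the lowest class went from 1.84 points ± 0.311 to -1.66 points ± 0.545. When a day 1 library set the class instead, with sites of up to 5 reads, the highest class differed by 0.643 points and the lowest by 0.859, and the classes between them by 1.19 to 1.55 points. In 10 kb blocks classed by a day 0 library, the 4 classes below 45% stayed between 1.24 and 1.73 points at both read caps. In 1 kb blocks they did not, with 2.39 points under 15% and -0.182 points, the days overlapping, from 35% to 45%. With a day 1 class and sites of up to 100 reads the 10 kb values under 15% and from 35% to 45% were 0.893 and 1.04 points.

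Neighbouring sites showed the nucleosome repeat on both days. In matched 1 kb blocks, r between site levels at distances above 70 and up to 100 bp was 0.0301 and 0.0338 in the day 0 libraries and 0.00260 and 0.000669 in the day 1 libraries. Above 160 and up to 190 bp it was 0.238 and 0.207 on day 0 and 0.274 and 0.254 on day 1. The swing between these distances, the measure of nucleosome order used here, was 0.208 and 0.173 on day 0 and 0.271 and 0.253 on day 1, a difference of 0.0714 ± 0.0276 (n = 2 per day, exact permutation p = 0.333). In the same blocks the days overlapped with sites of up to 5 reads, at 0.0496 ± 0.0555, and at sites of exactly 3 reads, at 0.0392 ± 0.0440. These correlations are across site pairs within a library, 43734 to 92092 pairs per window, which share reads and are not independent.

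A second repeat was less clear. In matched blocks r of the treated libraries above 240 and up to 280 bp was 0.165 on day 0 and 0.196 on day 1, and above 330 and up to 370 bp it was 0.189 and 0.234. The second swing was 0.0240 in each day 0 library and 0.0368 and 0.0400 in the day 1 libraries. In the untreated libraries it was of like size, at 0.0136 and 0.0265 on day 0 and 0.0239 and 0.0422 on day 1. With treated sites of up to 5 reads over all autosomal pairs, the day 0 r was 0.0543 above 240 and up to 280 bp and 0.0367 above 330 and up to 370 bp, so no second recovery was seen on day 0 there. In a running mean over adjacent 10 bp bins, r near the first repeat was highest at 175 and 165 bp on day 0. In each day 1 library it was highest at 185 bp. The lowest running mean lay at 75 and 85 bp on day 0 and at 75 bp in each day 1 library. Single bins were highest at 165 and 155 bp on day 0 and at 185 and 195 bp on day 1. They were lowest at 85 bp in each day 0 library and at 75 bp in each day 1 library. The untreated libraries had no such dip, with 0.120 and 0.126 on day 0 and 0.0984 and 0.117 on day 1 at the shorter distance, and a negative swing of -0.0751 and -0.0581 on day 0 and of -0.0262 and -0.0400 on day 1. Their swing was also higher on day 1 than on day 0, by 0.0335.

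The set of site pairs changed the result. Over all autosomal pairs the short-distance r was -0.0244 and -0.0149 on day 0 and -0.100 and -0.110 on day 1, and the swing differed by 0.0933 ± 0.0180. Over the pairs of sites that were covered together on both days, the short-distance r was higher on day 1, at 0.238 on day 0 and 0.305 on day 1. The longer-distance r was higher by a like amount, at 0.303 and 0.375, so the swing differed by 0.00519 ± 0.0208 and the days overlapped. The larger swing of day 1 was thus seen across the blocks but not at the same site pairs. These pairs lay mostly at deeper sites. Of 30501 to 31219 per library at the longer distance, 732 to 953 remained with sites of up to 5 reads. Whether the choice of pairs or their depth made the difference was not tested.

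The parts of the swing differed over all autosomal pairs. With sites of up to 5 reads, the short-distance r over all autosomal pairs was -0.0755 and -0.0684 on day 0 and -0.158 and -0.165 on day 1, without overlap. The longer-distance r was 0.149 and 0.131 on day 0 and 0.131 and 0.115 on day 1, with the days overlapping. The longer-distance r at sites of up to 100 reads was 0.212 and 0.196 on day 0 and 0.216 and 0.206 on day 1, also overlapping. At both read caps the difference between the days over all autosomal pairs lay in the dip and not in the recovery. Same site pairs of up to 5 reads were few, 732 to 953 per library at the longer distance, and their swing differed by -0.183 ± 0.0903.

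**Figure D3:**
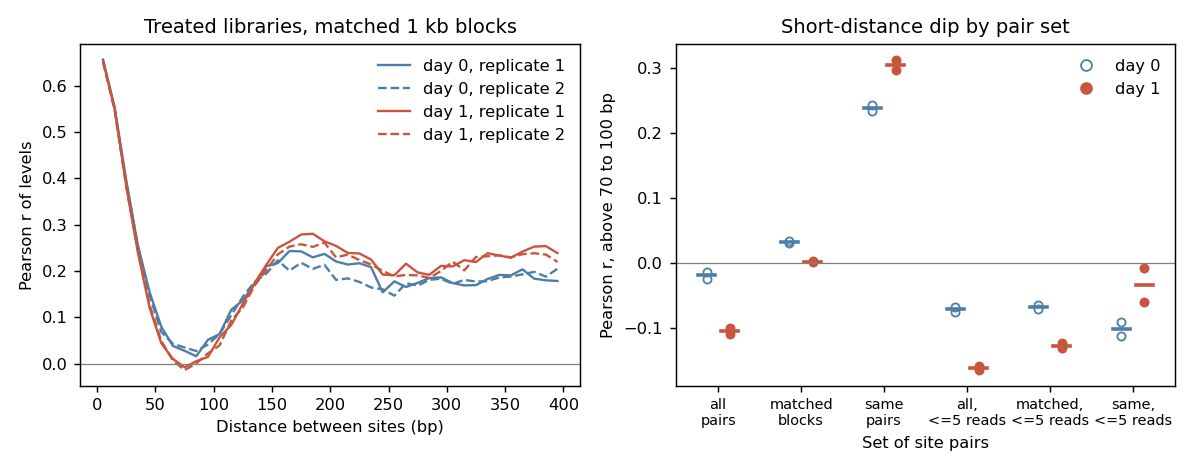
Left, Pearson r between GpC levels of neighbouring sites against the distance between them (bp, 10 bp bins) in matched 1 kb blocks, 1 line per treated library. Right, r above 70 and up to 100 bp for 6 sets of site pairs, 1 circle per library with bars at the mean of 2; r is lower on day 1 in the 4 sets that differ in their sites and higher on day 1 in the 2 sets of the same site pairs.

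By distance to genes, the swing in matched blocks differed least at gene ends. There it was 0.210 and 0.110 on day 0 and 0.198 and 0.137 on day 1, so the days overlapped. In gene bodies it was 0.188 and 0.148 on day 0 and 0.222 and 0.216 on day 1, a difference of 0.0511 ± 0.0283. Blocks under 10 kb, at 10 to 100 kb and at over 100 kb from genes differed by 0.0521, 0.0618 and 0.103, each without overlap. With sites of up to 5 reads over all autosomal pairs this order turned. Both the read cap and the set of pairs differ there from the matched blocks, and which of them turned the order was not tested. The swing then differed by 0.116 ± 0.116 at gene ends, the largest value of the 5 distance classes, against 0.0324 to 0.0953 in the others, each without overlap. In that set of pairs gene ends also had the lower short-distance r on day 1, at 0.0519 and 0.137 on day 0 and -0.0788 and 0.0214 on day 1. Gene bodies went from -0.115 to -0.178 in the same measure, and DNA over 100 kb from genes from -0.110 to -0.202. With sites of up to 5 reads over all autosomal pairs, the short-distance r was lower on day 1 in all 5 distance classes and all 5 density classes, without overlap.

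By density, the same measure went from -0.112 to -0.224 in blocks with 0 to 2 genes and from -0.0602 to -0.146 in those with over 30. In matched blocks the swing differed without overlap with 3 to 7 genes (0.0766) and with 16 to 30 genes (0.0637), and the days overlapped in the other 3 density classes. By starting level it differed by 0.172 ± 0.0799 under 15%, by 0.0503 from 15% to 25% and by 0.0648 from 25% to 35%, and the days overlapped in the 2 higher classes. The class under 15% rested on as few as 347 pairs in a library. With the class set by a day 1 library the swing under 15% differed by 0.179 ± 0.0238. No difference between classes in the swing was tested.

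Promoters were covered thinly. RefSeq windows of 250 bases before to 50 bases after a transcript start numbered 31396 on the autosomes, and 777 of them had treated calls on both days. Their level was 45.1% and 45.7% on day 0 and 41.6% and 45.8% on day 1, so the days overlapped and no difference was detectable at this depth. The 491 windows with 15 or more CG read 61.1% and 58.2% on day 0 and 53.4% and 60.5% on day 1, and the 286 windows with fewer CG read 27.7% and 33.8% on day 0 and 29.4% and 30.9% on day 1. CG-dense windows were the more accessible ones on both days.

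The letters CCGGAA are a form of the motif that ETS factors bind. Other forms were not searched, so windows without these letters may hold them. Searched on both strands, these letters were in 15.1% of all windows and in 178 of the 777 covered ones. Windows with them read 63.9% and 63.6% on day 0 and 59.3% and 68.1% on day 1. The 599 windows without them read 41.7% in each day 0 library and 38.3% and 41.0% on day 1, lower without overlap by -2.07 points ± 1.93. The 345 CG-dense windows among these overlapped between days, at 59.0% and 54.6% on day 0 and 50.6% and 55.9% on day 1. Windows with the letters were thus the more accessible on both days and overlapped between days, and 146 of the 178 were CG-dense. A match of letters is not a bound site. Not every autosome was considered when windows with the letters were chosen for printing. Among the windows considered, the 2 with most calls on the thinner day show what the assay reads within a promoter. Their bases from -200 to -1 before the start are printed 5′ to 3′ on the gene's strand from RefSeq (GRCm38.p6), with every listed site in capitals, C for a cytosine on this strand and G for the base opposite a cytosine on the other.
Atoh8: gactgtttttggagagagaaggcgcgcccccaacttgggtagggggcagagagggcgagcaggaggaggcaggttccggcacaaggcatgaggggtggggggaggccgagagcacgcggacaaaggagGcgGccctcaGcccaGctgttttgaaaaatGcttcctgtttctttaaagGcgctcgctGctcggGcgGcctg
Lmnb2: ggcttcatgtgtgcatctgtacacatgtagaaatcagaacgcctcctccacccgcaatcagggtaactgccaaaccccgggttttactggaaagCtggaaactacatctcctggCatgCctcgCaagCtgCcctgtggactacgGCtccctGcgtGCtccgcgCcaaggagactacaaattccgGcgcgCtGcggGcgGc

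Atoh8, a basic helix-loop-helix transcription factor, lies on the minus strand, with the printed bases at chr6:72235578-72235777. Over its whole window the first day 0 library read 29 of 48 calls methylated and the second day 1 library 34 of 36, or 60.4% (95% exact Clopper-Pearson interval 45.3% to 74.2%) and 94.4% (81.3% to 99.3%). The other 2 treated libraries had no calls there. Lmnb2, which encodes lamin B2 of the nuclear lamina, is also on the minus strand, at chr10:80918246-80918445. It read 31 of 38 and 14 of 19 calls on day 0 and 21 of 30 in the first day 1 library. The intervals cover counting error only, and calls on 1 read are not independent, and each day of Atoh8 is a single library with no replicate check.

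**Figure D4:**
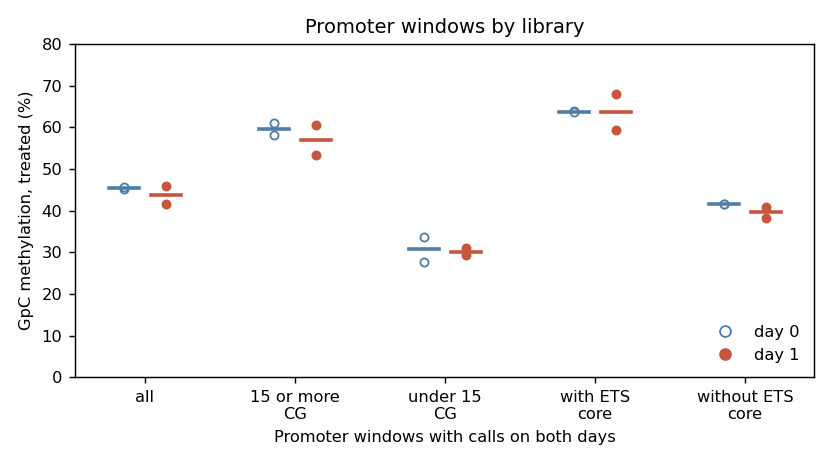
GpC methylation level (percent) of treated libraries in RefSeq promoter windows with calls on both days, by CG count and by the presence of the letters CCGGAA (marked ETS core). Each circle is a library (open for day 0, filled for day 1) and each bar the mean of 2. The days overlap in every set shown except windows without these letters, where day 1 lies lower, at 38.3% and 41.0% against 41.7%.

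Few single regions changed by more than the replicates allowed. Of 3697 blocks of 10 kb with 20 calls in each treated library, edgeR's quasi-likelihood test on methylated and unmethylated counts called 5 at a Benjamini-Hochberg adjusted p under 0.05, or 0.135% of those tested; 4 rose and 1 fell. Of 558 blocks of 1 kb it called 7, or 1.25%, and all 7 rose. In simulated 1 kb blocks, with 100 changed by 1 and 100 by 2 in log2 odds, the same fit made 8 false calls. False calls can grow in number with the changes put in, so that number does not say how many of the 7 are false. Of 7709 gene loci, each gene with 1000 bp on either side, the test called 3, or 0.0389%, and all 3 rose. Both day 1 libraries lay above both day 0 libraries in 20.4% of the 10 kb blocks, 33.7% of the 1 kb blocks and 21.9% of the gene loci, and below both in 13.1%, 9.86% and 13.4%. In simulated 10 kb blocks, edgeR found 5% of those changed by 2 in log2 odds and 0% of those changed by 1. A gene that was not called is therefore not shown to have stayed the same.

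The most strongly called block lay on chromosome 17 (mm10) at chr17:39840001-39850000, over 1 annotated end of the lncRNA AY036118 and over Rn18s-rs5, which RefSeq lists as a pseudogene named for 18S ribosomal RNA. Its level was 61.9% and 63.0% on day 0 and 71.2% and 70.5% on day 1, and it rose by 8.42 points (0.55 in log2 odds, edgeR adjusted p = 7.55e-54). Its untreated levels were 1.54% and 1.69% on day 0 and 1.43% and 1.09% on day 1. Its sites had 33.6 reads on average against a median of 3.14 over the blocks tested, and those of the called blocks at and beside Sfi1 13.7 and 9.40. Whether reads from other copies were placed at these loci was not tested. Of the 7 called 1 kb blocks, 5 tile chr17:39843001-39848000 within it, with rises of 7.89 to 9.67 points. The rise was also called under each alternative run for the 10 kb block, and with all 8 libraries it was the 1 block called. The AY036118 locus passed too, at 60.7% and 60.4% on day 0 and 67.7% and 67.5% on day 1, but not without either day 1 library.

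Sfi1, which encodes a centrosomal protein, gave the other dense cluster. The block at chr11:3140001-3150000, inside the gene, had 27.8% in each day 0 library and 31.1% and 30.4% on day 1, a rise of 2.92 points (edgeR adjusted p = 1.26e-05) that was not called without the first day 1 library (adjusted p = 0.114). The block at chr11:3120001-3130000, which holds the transcribed pseudogene Pisd-ps1 and ends 1850 bp from Sfi1, had 27.3% and 26.5% on day 0 and 32.8% and 33.3% on day 1, a rise of 6.15 points that was not called without either day 1 library (adjusted p = 0.0921 and 0.148 by edgeR). The 1 kb block at its end, chr11:3129001-3130000, was called at an edgeR adjusted p of 0.0481 and in no refit that left out a library. The whole Sfi1 locus was called too, at 27.7% and 28.2% on day 0 and 30.01% and 29.5% on day 1. Neither its call nor that of the block inside it held when each library was centred on its own median log odds (edgeR adjusted p = 0.678 and 0.172). The locus also lost its call without either day 1 library.

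The lncRNA 2700054A10Rik gave the fourth rising 10 kb block, at chr17:13550001-13560000. It stood at 24.8% and 24.6% on day 0 and at 26.4% and 27.3% on day 1. Its rise of 2.19 points was called by edgeR (adjusted p = 1.26e-05) but not after centring (adjusted p = 0.597) nor without the second day 1 library (adjusted p = 0.148). Its whole locus was the third one called by edgeR (adjusted p = 0.00330) and not by limma (adjusted p = 0.0985). The remaining called 1 kb block off AY036118 and Sfi1 lay at chr17:36231001-36232000, 23673 bp from Rpp21, a subunit of ribonuclease P. It had 62.4% and 60.3% on day 0 and 69.5% and 69.8% on day 1, and its edgeR adjusted p of 0.0287 passed 0.05 in no refit that left out a library.

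The 1 falling block was shallow. At chr6:113300001-113310000 it holds 1 annotated end of Cpne9, a calcium-dependent membrane-binding copine, and 1 of Brpf1, a chromatin reader of an acetyltransferase complex, as RefSeq places them. Its 103 and 30 calls on day 0 were 76.7% and 46.7% methylated, and its 85 and 64 calls on day 1 were 30.6% and 9.38%. The difference of -41.7 points had an edgeR adjusted p of 0.0278 and a limma adjusted p of 0.187, and it was called in only 1 of the 4 refits that left out a library.

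The 10 rising and 10 falling blocks of smallest p divided by depth. The rising 10 gained 1.64 to 8.69 points at 9.40 to 33.6 reads per site. Besides the 4 above they were 3 more blocks of Sfi1, 1 in Cdk8, the kinase of the Mediator complex, 1 nearest to Gm46796 and 1 in the lncRNA Gm36876. Their differences did not pass the test, with edgeR adjusted p from 0.123 to 0.214. The falling 10 differed by -25.7 to -43.8 points at 3.04 to 3.53 reads per site. Besides Cpne9 they were at Lemd2, of the inner nuclear membrane, Mcat and Coq9, of mitochondrial metabolism, Ube2h, a ubiquitin-conjugating enzyme, Pgls, of the pentose phosphate pathway, Itpr2, a calcium channel of the endoplasmic reticulum, Tm7sf3, Akr1b8 and Mirc35hg. Only 131 of the 3697 blocks had over 5 reads per site, and all 10 rising blocks were among them and none of the falling ones. All 10 rising and 9 of the 10 falling blocks separated the days. The p that ranked them came from the same calls, so neither this nor the split by depth is independent support.

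Genes of the pathways that Etv2 is known for were covered in part. Of 30 endothelial genes and Etv2 targets, 11 had 20 calls in each treated library and edgeR called none; 8 were higher and 3 lower on day 1, with a median log2 odds difference of 0.13. Over all 7709 loci 58.1% were higher and the median was 0.10. Both day 1 libraries lay above both day 0 libraries at 4 of the 11, where 21.9% of all loci did, and below at 2, where 13.4% did. Vwf, the von Willebrand factor of endothelium, had 29.8% and 32.8% on day 0 and 28.5% and 33.8% on day 1. Nfatc1, a transcription factor of the endocardium, had 35.1% and 22.9% on day 0 and 36.1% and 26.8% on day 1. The days overlapped at both, and 1 of the 11, Ets1, had an unadjusted edgeR p under 0.05, as did 5.72% of all loci tested (441 of 7709).

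The other lists gave no call by edgeR either. Of 30 fibroblast and matrix genes 12 were tested, 7 higher and 5 lower, with a median of 0.27 and 0 at an unadjusted p under 0.05. Col5a1, a fibrillar collagen chain, had 35.9% and 28.5% on day 0 and 35.5% and 28.6% on day 1, while Fbn1, the microfibril protein fibrillin, had 25.2% and 18.4% on day 0 and 29.2% and 29.5% on day 1. Of 15 BAF and other chromatin remodellers 12 were tested, 7 higher and 5 lower, with a median of 0.11. An unadjusted edgeR p under 0.05 was found at 3 of them, and at 5.72% of all loci tested. Those 3 went both ways: Arid1b and Smarcb1 were higher on day 1, and Arid1a, at 45.9% and 37.5% on day 0 and 23.6% and 24.7% on day 1, was lower. Arid1b, a DNA-binding BAF subunit, had 31.1% and 24.3% on day 0 and 35.2% and 31.5% on day 1 (edgeR adjusted p = 0.853). Smarca2, the ATPase also called BRM, had 21.1% and 24.5% on day 0 and 29.4% and 26.5% on day 1.

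Of 15 genes that fibroblasts do not express 2 were tested. Ryr2, the calcium release channel of heart muscle, had 28.2% and 19.2% on day 0 and 33.0% and 35.5% on day 1 (edgeR adjusted p = 0.853). Nanog, a pluripotency factor, had 20.4% and 35% on day 0 and 53.3% and 50% on day 1, from 30 to 60 calls per library. Both were higher on day 1 without overlap, as were 21.9% of all loci tested, and neither passed the test over all loci. At promoters, 58 of the 90 genes on these lists had a RefSeq window and only that of Ino80 had treated calls on both days.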

How the data were processed

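GpC methylation was compared between the treated libraries of day 0 and day 1 (2 each), with the untreated libraries as background. The authors deposited 1 line per cytosine with a methylated fraction and a read count, on build mm10 per the submitters' processing notes. How reads were aligned, called and deduplicated is not given in the sources used here. Methylated reads per site are its fraction times its count, rounded. Autosomal sites of at most 100 reads were summed in blocks of 1 kb and 10 kb. For matched levels, each call was weighted by its block's share of calls on the other day. Classes used 33073 autosomal genes of RefSeq (GRCm38.p6, 20665 protein-coding and 12408 lncRNA). Starting levels needed 20 calls. Group means were compared by exact two-sided permutation.

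Blocks and gene loci with 20 calls in each treated library were fitted with edgeR 4.0.16 (R 4.3.3), and limma 3.58.1 on log2 odds was an alternative, at a Benjamini-Hochberg threshold of 0.05. Simulated data had the real coverage, an assumed spread between libraries, and 100 features changed by each size. At 1 kb edgeR found 24% and 79% of changes of 1 and 2 in log2 odds, with 8 false calls among 558 blocks. At gene loci it found 1% and 33%, with 1 false call. Named blocks are the 10 rising and 10 falling 10 kb blocks of smallest edgeR p with their genes, and the 2 members of each gene list with most calls. Blocks called at 1 kb, called gene loci, Ets1, Arid1a, Smarcb1, Ino80 and the printed promoters were named after their values were seen. The groups, lists and tests were chosen with earlier results of these data known. Promoter windows, gene loci and the cap of 5 reads were added after the files were seen.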

Additional observations from a re-analysis of the deposited data

Results flagged for a closer look

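The day effect differed between treated and untreated libraries. Over the 14604 blocks of 1 kb with calls in all 4 groups, the treated level went from 31.9% on day 0 to 34.3% on day 1, a difference of 2.40 points. The untreated level went from 2.92% to 2.11%, a difference of -0.808 points. The treated minus the untreated difference was 3.20 points, with p = 0.0556 in an exact two-sided test that permuted the days within treated and within untreated libraries. That is the smallest p of its 36 reassignments. Both treated libraries of day 1 lay above both of day 0, and both untreated libraries of day 1 lay below both of day 0, over the blocks matched within each kind of library.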

How the results depend on the processing

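Depth limits these results: most sites had 3 reads, so single blocks and promoters carry little, and weight sits in few deep blocks. Day 1 stayed above day 0 without overlap in every setting run for the mean level. The 1 kb difference was 1.70 points with a cap of 20 reads, 1.65 with no cap, 1.61 with a cap of 5, 1.61 with equal weights, 2.72 with calls in all 4 treated libraries, 2.57 with 20 calls a day and 3.20 less the untreated difference; leaving out a library gave 1.99 to 2.09. The 10 kb difference was 1.48 with a cap of 20, 1.50 with no cap, 1.44 with a cap of 5, 1.74 with calls in all 4 and 2.68 less the untreated difference, and 1.56 to 1.65 without a library. The distance contrast was -1.17 with calls in all 4, 2.23 with equal weights, 3.65 with protein-coding genes, 2.64 with a cap of 5, 0.583 in 10 kb blocks with the days overlapping, and 0.531 to 1.80 without a library. The density contrast was 0.540 with calls in all 4 and 0.232 with protein-coding genes, and -0.899 to -0.291 without a library. The starting-level contrast was 2.18 with a day 1 class, 4.13 in 1 kb blocks, 4.15 with 50 calls and -1.66 with a cap of 5. It was -32.4 when the same pooled libraries set class and level, which chance in the starting value drives by construction, and 1.81 to 2.26 without a day 1 library. It needs both day 0 libraries, so no value without one of them could be had. The swing difference was 0.0392 at sites of exactly 3 reads, 0.0496 with a cap of 5 and 0.00519 at the same site pairs, each with the days overlapping, and -0.183 at the same pairs of up to 5 reads, and 0.0540 to 0.0888 without a library. The cause of these moves was not tested.

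Fits with all 8 libraries required calls in each and called 1 block of 10 kb, 0 of 432 blocks of 1 kb (edgeR, 45 at an unadjusted p under 0.05) and 0 of 5642 gene loci (edgeR, 176). Centring each library called 2 blocks of 10 kb and 1 gene locus. It moved the share of 1 kb blocks higher on day 1 from 67.4% to 50.9%, and 6 were called, 5 of them higher. Without a library, counts were 2 to 10 at 10 kb, 4 to 6 at 1 kb and 0 to 19 at gene loci, with 228 and 227 loci at an unadjusted p under 0.05 in the edgeR fits without a day 1 library, which called 0. A lone library of a day was then assumed to vary like the other day's. Replicate numbers are shared between the days, but deviations from the day means of same-numbered libraries correlated at only 0.0108 over 3697 blocks, so the numbers were not taken as pairs. A replicate block leaves the level differences of 1.98 and 1.61 points and the swing difference of 0.0714 the same by arithmetic, so they are no check. In the edgeR fits with that block, 5 blocks of 10 kb, 22 of 1 kb (20 higher, 2 lower) and 4 gene loci were called.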
